A study of Mus musculus with 18 samples.

Results

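Class I antigen presentation was followed through 32 genes of back skin, chosen by symbol from the 55357 genes of the deposited table. They comprise 16 class I heavy chain genes, the light chain gene B2m, 4 genes of peptide transport and loading, 1 of peptide trimming, 5 of the immunoproteasome and its activator, 2 transcription regulators and 3 chaperones. The list was drawn up with earlier results of these same libraries known, so the values below describe the pathway and are not independent evidence for it. Bulk RNA was sequenced from 18 mice of the FVB strain at 6 months of age. WT mice gave 6 libraries. Transgenic mice that carry added IKKα in the keratinocyte nucleus (N-IKKa) gave another 6, and mice that carry it in the keratinocyte cytoplasm (C-IKKa) a further 6. The promoter that drives the transgenes and the number of founder lines are not given in the sources used here, and the labels record no treatment and no sex.

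Class I molecules show peptides from proteins made inside the cell to CD8+ T cells. The proteasome cuts proteins, TAP carries the fragments into the endoplasmic reticulum, and tapasin, calreticulin, calnexin and ERp57 help to fit them onto a heavy chain paired with B2m. Interferon gamma is known to raise most of these genes through IRF1 and NLRC5, exchanging catalytic proteasome subunits for inducible ones, and NF-kB factors, which IKKα acts upstream of, also bind class I promoters. Keratinocytes carry class I at a low level in resting skin, and the growing hair follicle is known for very little of it.

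The promoters of the heavy chain genes are shown first because many hold letters that IRF1 and NF-kB factors are known to read. Letters tied to NLRC5 were not searched. Of the 32 genes, 25 had a promoter window, from 250 bases before to 50 after the start, in the RefSeq table for build GRCm38.p6. An NF-kB consensus, searched by its name on both strands, was present in 10 of the 25, against 5.14% of 27025 genes in that table. The interferon response core GTTTCNCTT, whose letters were chosen after the sequences had been seen, was present on either strand in 10 of the 25, against 2.05%. A form with 1 more base at its 5′ end, also tried, was present in 9, against 0.562%. The NF-kB consensus and the shorter core lay in the same window in 8 genes, against 0.141%. Several of these genes, such as H2-Q6 and H2-Q7, share near-identical stretches, so they are not all separate cases. In the 6 examples capitals mark the matches, 5′ to 3′ on the gene's own strand.
H2-K1: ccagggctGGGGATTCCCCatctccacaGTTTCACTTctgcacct
H2-D1: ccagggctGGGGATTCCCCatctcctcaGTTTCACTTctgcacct
H2-Q4: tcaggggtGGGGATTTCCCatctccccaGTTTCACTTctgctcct
H2-Q7: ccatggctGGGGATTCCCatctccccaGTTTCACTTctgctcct
H2-M2: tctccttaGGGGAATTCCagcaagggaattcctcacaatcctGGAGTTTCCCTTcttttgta
H2-T3: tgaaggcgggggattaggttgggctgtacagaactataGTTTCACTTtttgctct
The stretches lie on chromosome 17 of GRCm38.p6: H2-K1 at chr17:34000422-34000466 (minus strand), H2-D1 at chr17:35262915-35262959 (plus), H2-Q4 at chr17:35379435-35379479 (plus), H2-Q7 at chr17:35439014-35439057 (plus), H2-M2 at chr17:37483681-37483742 (minus) and H2-T3 at chr17:36190262-36190316 (minus). The second NF-kB match of H2-M2 overlaps its interferon core, and H2-T3 has the core without the NF-kB consensus. A match is a description of letters, not a bound site or a cause. FVB mice carry another class I haplotype than the reference strain, so these are reference sequences and not those of the mice studied.

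Values are deposited normalized counts, that is, reads divided by a scaling factor for each library. The libraries held 11.1 M to 15.7 M reads, and 3 reads correspond to 2.45 to 3.61 normalized counts. Keratinocyte markers were high in every library, with a sum over 8 genes of 135410 to 236470. Chuk, which encodes IKKα, ran from 851 to 1267 in WT (median 989), 804 to 1050 in N-IKKa (1021) and 853 to 934 in C-IKKa (885), so its level does not separate the labelled groups. A library was taken as hair-high where a list of hair shaft and inner root sheath genes averaged above 8 on the log2 scale. This held for C-IKKa 14, for WT 1 and 4 and for N-IKKa 8, 9 and 11, all read as female from the Y-linked gene Ddx3y.

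Of the 32 genes, 22 reached 10 normalized counts in at least 6 libraries and were tested, 4 fell below that level, and 6 were listed at 0 in all 18 libraries. The 6 were B2m, Psmb10, Tapbpl, H2-T10, H2-T23 and H2-T24. B2m is abundant in nearly every nucleated cell, and 2 of 72 ribosomal protein genes, Rpl35 and Rpl35a, were also listed at 0. A listed 0 in this table therefore may be a failed estimate, and no level is given for these genes. The 4 below the level were H2-Q1, H2-Q2, H2-Q10 and H2-T22, whose highest library held 19.0. H2-Q2 reached at most 7.99 in WT and 4.66 in N-IKKa and ran from 4.59 to 19.0 in C-IKKa, where 5 of 6 libraries reached 10 and 0 of the other 12 did. H2-Q6, H2-Q7, H2-K2 and H2-T3 reached the level only when the C-IKKa libraries were counted, so they had to be high there to be tested at all.

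Most class I pathway genes had higher values in C-IKKa than in WT skin, and 3 of them passed the test across all genes. H2-K2, H2-T3 and Psme2 rose in C-IKKa, and no member fell (limma with Benjamini-Hochberg adjustment over 17667 genes). That is 3 of 22 tested members, beside a background of 0.345% of all genes called higher. At an unadjusted p below 0.05, 15 members were higher and 0 lower, beside 3.61% and 2.12% of all genes. On recovered reads edgeR called 2 members higher, beside 0.311% of genes, and DESeq2 called 8, beside 0.77%. The median log2 fold change of the 22 was 0.81, against 0.00028 for all genes, and 20 of 22 were positive, beside 50% of all genes. In 8 members every C-IKKa library exceeded every WT library, beside 0.838% of all genes. H2-K2, H2-T3, H2-Q6 and H2-Q7 needed the C-IKKa libraries to be tested, so these counts support nothing by themselves. Among the other 18 members, 1 was called (Psme2), 12 were higher at an unadjusted p below 0.05, 16 were positive and 6 had no overlap, with a median of 0.77. In bulk tissue, more (or fewer) cells of a type and more (or less) RNA per cell cannot be told apart.

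**Figure D1:**
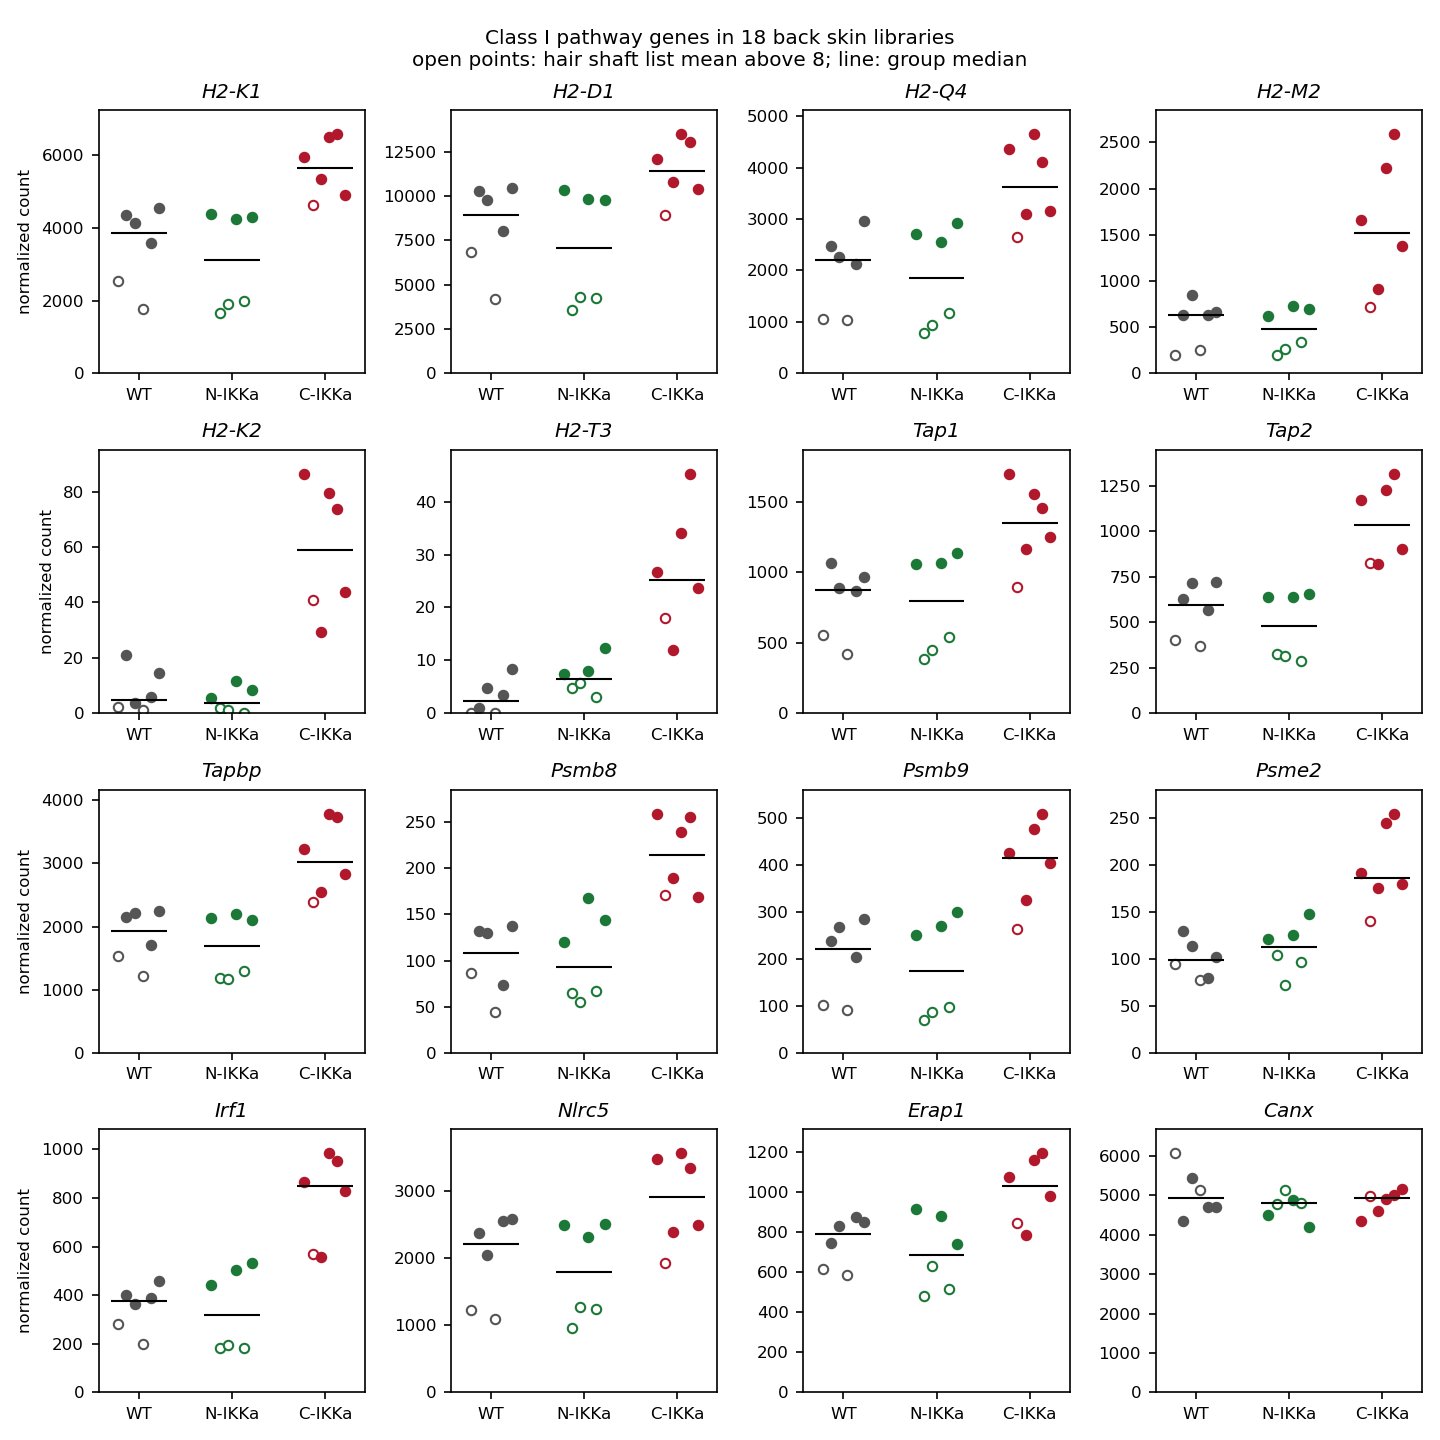
Normalized counts of 16 class I pathway genes (vertical axes, each from 0) in the 18 libraries by group, with a line at each group median and open points for the 6 hair-high libraries. Points of C-IKKa lie above those of WT for 8 tested members, while the open points are the lowest of their group for most genes. Canx medians lie between 4794 and 4935.

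Among the classical heavy chains, H2-K1 ran from 1778 to 4543 in WT (median 3866), 1661 to 4391 in N-IKKa (3118) and 4637 to 6573 in C-IKKa (5640). Every C-IKKa library exceeded every library of the other 2 groups. The log2 difference from WT was 0.76 (SE 0.27, limma adjusted p = 0.597), which did not pass the test. H2-D1, the other classical chain, ran from 4216 to 10429 in WT (median 8902), 3590 to 10324 in N-IKKa (7047) and 8938 to 13485 in C-IKKa (11439). Its groups overlapped, with a log2 difference of 0.52 (SE 0.28, limma adjusted p = 0.954). Per kilobase of exon, H2-D1 was the most abundant heavy chain, with a median of 3452 in WT and 4435 in C-IKKa, against 1316 and 1920 for H2-K1.

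The Q region chains are nonclassical and sit beside H2-D1. H2-Q4 ran from 1040 to 2957 in WT (median 2196), 776 to 2932 in N-IKKa (1860) and 2658 to 4648 in C-IKKa (3630). In 5 of 6 C-IKKa libraries it lay above all WT libraries, with a log2 difference of 0.97 (SE 0.35, limma adjusted p = 0.592). H2-Q6 was scarce, at 3.02 to 19.2 in WT (median 8.26), 1.86 to 25.6 in N-IKKa (6.30) and 12.4 to 40.7 in C-IKKa (20.4). Its log2 difference from WT was 1.27 (SE 0.51, limma adjusted p = 0.701). H2-Q7 overlapped between groups, with medians of 7.50, 5.69 and 14.0 in WT, N-IKKa and C-IKKa. Near-identical stretches make the scarce chains uncertain: 10.8% of the 100-base windows of H2-Q6 and 12% of those of H2-Q7 occur in another gene, against 0.957% for H2-K1.

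H2-K2, annotated as a transcribed pseudogene in the reference, gave 1.14 to 21.2 in WT (median 4.71), 0 to 11.4 in N-IKKa (3.70) and 29.4 to 86.5 in C-IKKa (58.8). Every C-IKKa library lay above all 12 others. It rose by a log2 fold change of 3.12 over WT (SE 0.65, limma adjusted p = 0.0417) and of 3.80 over N-IKKa (adjusted p = 0.00835). The call against WT was lost without any 1 of WT 1, 3, 4 or 5 or C-IKKa 13, 14, 16, 17 or 18, with values of 2.81 to 3.20 and adjusted p of 0.0759 to 0.142. It was also lost with edgeR (2.85, adjusted p = 0.092) and with sex as a covariate (2.84, adjusted p = 0.0818). A pseudocount of 0.5 (3.27, adjusted p = 0.0917), no filter (3.12, adjusted p = 0.0546) and quantile scaling (3.06, adjusted p = 0.0696) also ended it. The call against N-IKKa held without each library in turn. Only 2 WT and 1 N-IKKa libraries reached 10 normalized counts, against 6 of C-IKKa. H2-K2 thus needed the C-IKKa libraries to be tested, so these calls support nothing by themselves.

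H2-T3 encodes the thymus leukaemia antigen, a ligand of the CD8αα dimer. It gave 0 to 8.42 in WT (median 2.26), 3.13 to 12.3 in N-IKKa (6.53) and 11.9 to 45.3 in C-IKKa (25.3). All C-IKKa libraries exceeded all WT libraries, and 1 N-IKKa library reached into the C-IKKa range. It rose over WT by a log2 fold change of 3.18 (SE 0.54, limma adjusted p = 0.00898) and was called in every alternative in which it was tested. Only 0 WT and 1 N-IKKa libraries reached 10 normalized counts, against 6 of C-IKKa. H2-T3 thus needed the C-IKKa libraries to be tested, so these calls support nothing by themselves. At these low counts the size depends on the pseudocount, being 3.61 with 0.5 and 2.004 with 5. Against N-IKKa the value was 1.80 (adjusted p = 0.241).

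H2-M2, a nonclassical chain of the M region, ran from 195 to 851 in WT (median 633), 199 to 731 in N-IKKa (481) and 721 to 2589 in C-IKKa (1518). C-IKKa 14 fell within the WT range and the other 5 lay above it. The log2 difference from WT was 1.60 (SE 0.42, limma adjusted p = 0.187), the largest among heavy chains that passed the level without the C-IKKa libraries. No 100-base window of H2-M2 or H2-T3 recurs in another gene. H2-M3, which presents N-formylated peptides, had medians of 248, 142 and 328 and overlapping groups.

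Of the genes for peptide transport and loading, Tap2 rose over N-IKKa and none passed the test against WT, while all 3 tested were higher at an unadjusted p below 0.05, beside 3.61% of all genes. Tap2, which encodes a subunit of the peptide pump, ran from 371 to 719 in WT (median 598), 287 to 655 in N-IKKa (482) and 823 to 1317 in C-IKKa (1038). All 6 C-IKKa libraries exceeded the other 12. It rose over N-IKKa by 1.20 on the log2 scale (limma adjusted p = 0.0306), while the difference from WT was 0.90 (SE 0.24, adjusted p = 0.207). The call was lost without any 1 of N-IKKa 8, 9 or 11 or C-IKKa 13, 16, 17 or 18 (1.07 to 1.24, adjusted p 0.0601 to 0.105), and with edgeR (1.13, adjusted p = 0.0547). It was also lost in a fit of the 2 groups alone (adjusted p = 0.0632) and without the hair-high libraries (0.73, adjusted p = 0.0545).

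Tapbp encodes tapasin, which bridges TAP and the heavy chain. It ran from 1211 to 2252 in WT (median 1928), 1161 to 2206 in N-IKKa (1694) and 2388 to 3791 in C-IKKa (3028). C-IKKa overlapped neither other group, with a log2 difference from WT of 0.76 (SE 0.20, limma adjusted p = 0.194). Tap1, the other pump subunit, had medians of 877, 798 and 1353. Erap1, which trims peptides in the endoplasmic reticulum, had medians of 788, 685 and 1028, with a log2 difference from WT of 0.42 (SE 0.17, adjusted p = 0.694). Exons on the opposite strand cover 18.5% of Tap2 and 24.9% of Tapbp, and the strand setting of the counting is not given in the sources used here.

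**Figure D2:**
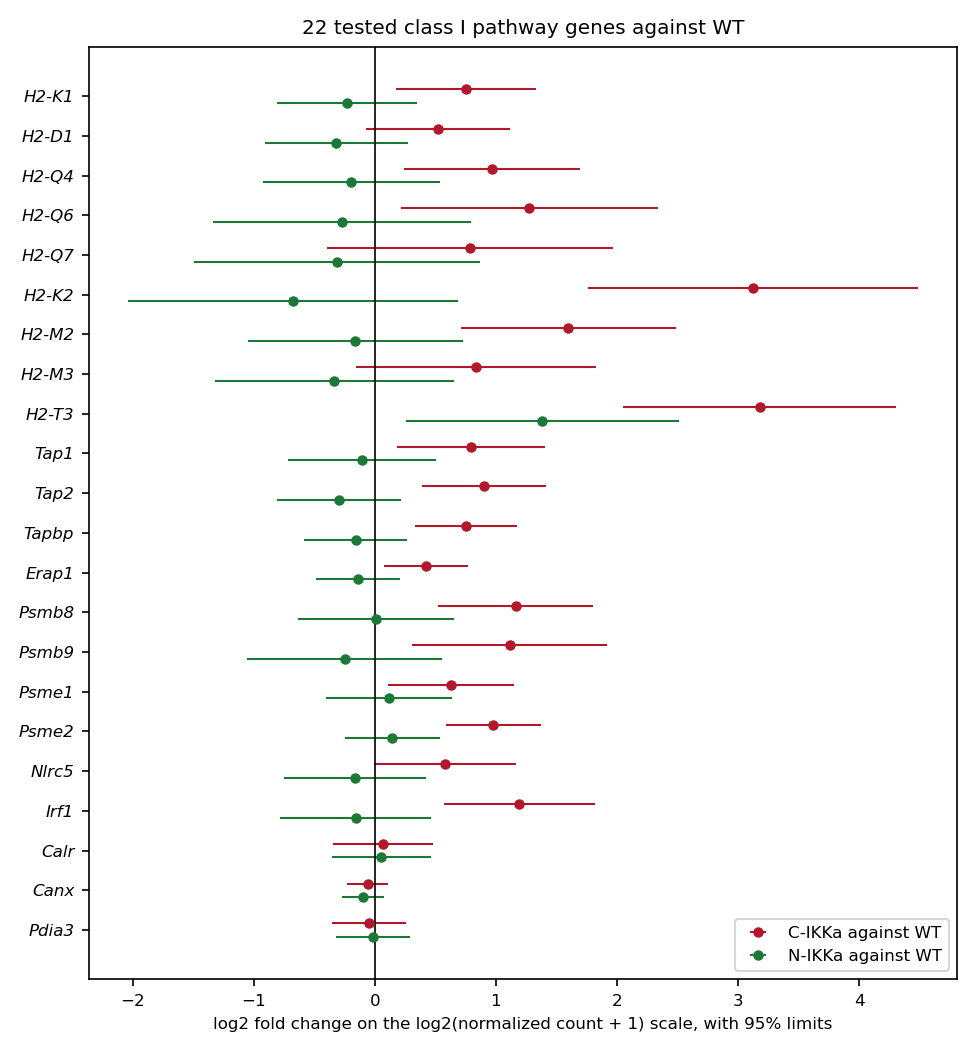
Log2 fold changes with 95% limits of the 22 tested genes (vertical axis) for C-IKKa and N-IKKa against WT. C-IKKa values are positive for 20 genes, N-IKKa values are positive for 5, and the limits of the 3 chaperones span 0 in both comparisons.

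Among the proteasome genes, 1 of the 4 tested inducible members rose in C-IKKa and 0 of the constitutive ones did, beside 0.345% of all genes called higher. Psme2, a subunit of the PA28 activator, ran from 77.6 to 129 in WT (median 98.5), 71.9 to 148 in N-IKKa (112) and 140 to 254 in C-IKKa (186). Every C-IKKa library was above every WT library, and it rose by 0.98 on the log2 scale (SE 0.19, limma adjusted p = 0.0223). The call was lost without any 1 of WT 4, 5 or 6 or C-IKKa 13, 16, 17 or 18 (0.90 to 0.9997, adjusted p 0.0509 to 0.0856). Psme2 shares 18.4% of its windows with Psme2b.

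Psmb8, an inducible catalytic subunit, ran from 44.5 to 137 in WT (median 108), 54.9 to 168 in N-IKKa (93.4) and 169 to 260 in C-IKKa (215). No C-IKKa library fell in the WT range, and the log2 difference was 1.16 (SE 0.31, limma adjusted p = 0.184). Psmb9, another inducible subunit, had medians of 221, 174 and 416, and Psme1, the partner of Psme2, had 118, 101 and 145. In the constitutive proteasome core 0 of 14 genes were called by limma, 0 at an unadjusted p below 0.05, and the median was −0.03, with Psmb5 at −0.43 and Psma5 at −0.15. The other caps had 0 of 13 called and a median of −0.11, with Psmc6 at −0.16 and Psme4 at −0.14. Of these 13, 12 were negative and 1 was positive, beside 50% of all genes positive. Psmc6 alone was lower at an unadjusted p below 0.05, beside 2.12% of all genes.

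Within a library, the inducible subunit can be set against the constitutive one it replaces. On the log2 scale Psmb8 minus Psmb5 was −1.53 to 1.88 in WT (median 0.96), 0.21 to 2.10 in N-IKKa (1.11) and 1.31 to 2.94 in C-IKKa (2.47). Psmb9 minus Psmb6 was −0.69 to 1.23 in WT (median 0.78), −0.90 to 1.29 in N-IKKa (0.32) and 0.78 to 2.13 in C-IKKa (1.61). The means of C-IKKa exceeded those of WT by 1.59 and 1.08, and the ranges overlapped. Psmb10 could not be set against Psmb7 because it was listed at 0. These differences are not corrected for gene length.

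**Figure D3:**
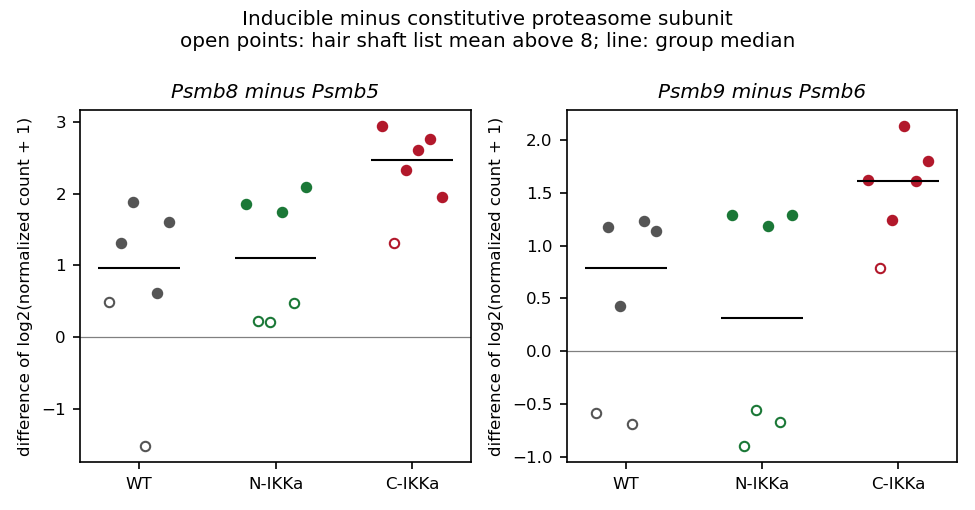
Difference of log2(normalized count + 1) between inducible and constitutive proteasome subunits (vertical axes) in each library by group, with lines at the group medians and open points for hair-high libraries. C-IKKa medians are 2.47 and 1.61, and the open points lie low in each group.

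Irf1, an interferon-induced activator of class I genes, ran from 201 to 460 in WT (median 377), 182 to 533 in N-IKKa (318) and 559 to 984 in C-IKKa (847). C-IKKa overlapped neither other group, and the log2 difference from WT was 1.19 (SE 0.30, limma adjusted p = 0.138). Nlrc5, the class I transactivator, ran from 1097 to 2579 in WT (median 2207), 950 to 2497 in N-IKKa (1791) and 1926 to 3556 in C-IKKa (2909). These ranges overlapped, with a difference of 0.58 (SE 0.28, adjusted p = 0.883).

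Other regulators and the interferon pathway were examined beside them. Among 12 other regulators of class I genes, 0 were called against WT and 3 were higher at an unadjusted p below 0.05, beside 3.61% of all genes. Relb, a partner of the alternative NF-kB pathway, had medians of 491 in WT and 1077 in C-IKKa (log2 1.16, SE 0.26, limma adjusted p = 0.0815), and it rose over N-IKKa by 1.31 (adjusted p = 0.0293). Nfkb2 had medians of 98.7 and 162 (0.98, SE 0.23, adjusted p = 0.104). Of 15 interferon signalling genes tested, 0 were called, 4 were higher at an unadjusted p below 0.05, beside the same 3.61%, and the median was 0.29, with Ifngr2 at 0.31 and Socs1 at 0.69. Class I related molecules had 0 of 4 called, beside 0.345% of all genes called higher, and a median of 0.17, with Hfe at 0.35 and Fcgrt at 0.24.

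The 3 chaperones showed no detectable difference between groups. Canx, which encodes calnexin, ran from 4337 to 6062 in WT (median 4920), 4191 to 5133 in N-IKKa (4794) and 4355 to 5165 in C-IKKa (4935). Its log2 difference from WT was −0.06 (SE 0.08, limma adjusted p = 0.985). Calr, which encodes calreticulin, ran from 3167 to 7491 in WT (median 4471), 3242 to 5848 in N-IKKa (5199) and 3800 to 6151 in C-IKKa (4926), a difference of 0.07 (SE 0.20, adjusted p = 0.989). Pdia3, which encodes ERp57, had medians of 1653, 1847 and 1752 (−0.05, SE 0.15, adjusted p = 0.989). Other genes of glycoprotein folding had 0 of 12 called, beside 0.345% of all genes called higher, with Hspa5 at −0.22 and P4hb at −0.09.

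N-IKKa skin did not differ detectably from WT in these genes. With limma 0 of 22 members were called, beside 0.00566% of all genes, and edgeR and DESeq2 also called 0. At an unadjusted p below 0.05 only H2-T3 was higher, by 1.38 (adjusted p = 0.88), beside 2.1% of all genes, and 0 were lower, beside 2.04%. The median was −0.16, with 5 members positive, beside 51.2% of all genes, and 17 negative. Against N-IKKa, C-IKKa had 2 of 22 members called higher, H2-K2 and Tap2, beside 0.425% of all genes, and 0 lower, beside 0.00566%. In this comparison, which shares the C-IKKa libraries with the first, 21 of 22 values were positive, beside 49.1% of all genes, with a median of 1.04. These counts include H2-K2, H2-T3, H2-Q6 and H2-Q7, which needed the C-IKKa libraries to be tested, so they support nothing by themselves. Among the remaining 18 members, 1 was called higher (Tap2) and 17 were positive, with a median of 0.91.

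Most class I pathway genes were lower in the hair-high libraries of each group. In WT, both hair-high libraries lay below all 4 others in 15 of 22 members, against 21.5% of all genes. In N-IKKa the 3 hair-high libraries lay below the other 3 in 18 of 22, against 26.9%. C-IKKa 14 lay below the other 5 in 11 of 22, against 25.8%. The split was made from these libraries, so it is described and not tested. Every hair-high library was read as female. Of the others, 2 of 4 from WT, 2 of 3 from N-IKKa and 4 of 5 from C-IKKa were read as male. Hair state and sex are therefore not balanced, and the part of sex in the hair-state difference was not tested. Markers of several cell types differed with hair state too.

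T and cytotoxic cell sums were 242 to 291 in hair-high and 661 to 902 in other WT libraries, and 224 to 371 and 715 to 1041 in N-IKKa. Langerhans and dendritic cell sums were 5072 to 5596 and 8081 to 12103 in WT, and 4317 to 5510 and 11189 to 13396 in N-IKKa. Keratinocyte sums were 157710 to 177370 and 181220 to 204960 in WT, and 135410 to 151000 and 193220 to 202060 in N-IKKa. These 3 lists separated the hair states in both groups. Skeletal muscle sums did so too, at 23959 to 100360 and 151700 to 265840 in WT and 53494 to 86497 and 93798 to 114630 in N-IKKa. Mitochondrially encoded sums separated them in WT, at 468510 to 581720 and 672910 to 997600, but overlapped in N-IKKa. The leukocyte, macrophage, fibroblast and endothelium lists separated them in N-IKKa but overlapped in WT. Leukocyte sums were 816 to 1677 in hair-high and 1582 to 1990 in other WT libraries, and 720 to 908 and 1748 to 2579 in N-IKKa. Macrophage sums were 4092 to 13864 and 7667 to 10605 in WT, where the highest library was hair-high, and 3187 to 4939 and 7471 to 12832 in N-IKKa. Fibroblast and endothelium markers showed that pattern as well, with N-IKKa fibroblast sums of 23673 to 38627 and 58126 to 258860 and endothelium sums of 1382 to 1782 and 2400 to 2827. The part of these cells in the hair-state difference was not tested.

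H2-K1 had a median of 2158 in hair-high and 4250 in the other WT libraries, a ratio of 1.97, with ratios of 2.25 in N-IKKa and 1.28 in C-IKKa. For H2-M3 the ratios were 3.46, 4.07 and 2.05, and for Psmb9 2.64, 3.10 and 1.61. The chaperones went the other way, with ratios of 0.54, 0.83 and 0.80 for Calr. Pdia3 had ratios of 0.76, 0.66 and 0.89, and Canx 0.84, 0.93 and 0.99. WT 4 was the lowest WT library in 15 of the 19 members other than chaperones, N-IKKa 8 in 11 and C-IKKa 14 in 11.

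**Figure D4:**
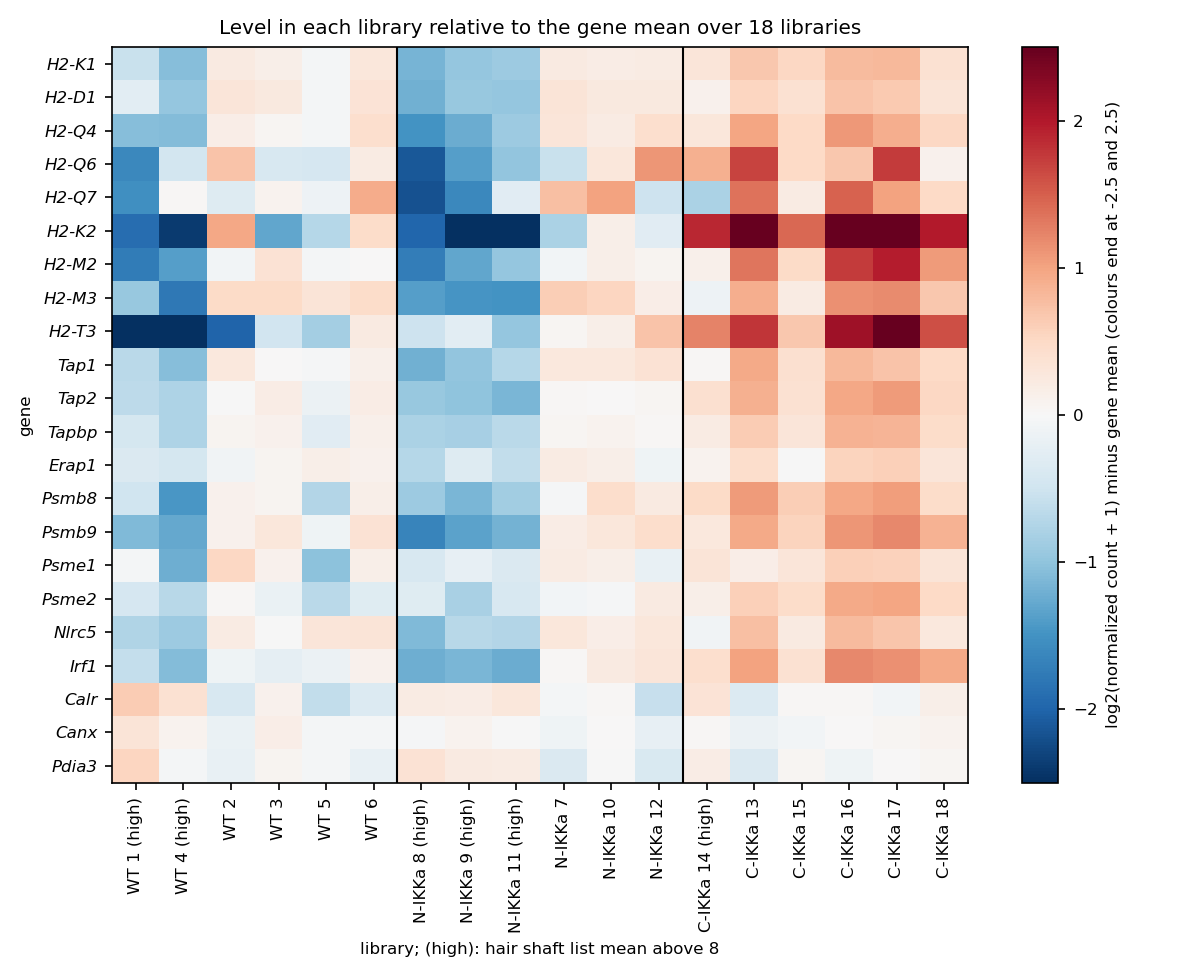
Log2(normalized count + 1) minus the gene's mean over the 18 libraries for the 22 tested genes (rows), with libraries in columns by group and hair-high libraries marked and placed first. The hair-high median is the lower in 19 of 22 rows in WT and N-IKKa and in 18 in C-IKKa.

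Hair-high libraries were spread unequally, at 2 of 6 WT, 3 of 6 N-IKKa and 1 of 6 C-IKKa. The comparison was therefore repeated in the 12 other libraries, which are 4 WT, 3 N-IKKa and 5 C-IKKa. There, 12 of 22 members rose in C-IKKa over WT and 0 fell, beside 0.866% of all genes called higher and 0.0566% called lower. The same 12 had no overlap between groups, beside 2.54% of all genes. They were H2-K1, H2-Q4, H2-K2, H2-M2, H2-T3, Tap1, Tap2, Tapbp, Psmb8, Psmb9, Psme2 and Irf1. Without the 4 members that needed the C-IKKa libraries to be tested, 10 of 18 were called.

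In these libraries Irf1 ran from 366 to 460 in WT and 559 to 984 in C-IKKa, a rise of 1.03 on the log2 scale (SE 0.14, limma adjusted p = 0.00338). H2-K1 ran from 3597 to 4543 in WT and 4905 to 6573 in C-IKKa, a rise of 0.49 (SE 0.10, adjusted p = 0.0298). Most fold changes were smaller than over all libraries, with a median of 0.64, and most standard errors were smaller too. Of these libraries, 2 of 4 from WT mice, 2 of 3 N-IKKa and 4 of 5 C-IKKa were read as male, so sex and group are not balanced. With the hair list and sex both as covariates over all 18 libraries, 12 members were called against WT, beside 0.804% of all genes, and with sex alone 2, beside 0.368%. These covariate counts include the 4 members that needed the C-IKKa libraries to be tested, so they support nothing by themselves. N-IKKa against WT gave 0 of 22 called in the hair-low libraries with limma, beside 0.0113%, and a median of 0.09. C-IKKa against N-IKKa gave 1, H2-K2 (2.70), beside 0.266%, and 12 members without overlap, beside 2.81%. H2-K2 needed the C-IKKa libraries to be tested, and without the 4 such members 0 of 18 were called and 11 had no overlap.

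**Figure D5:**
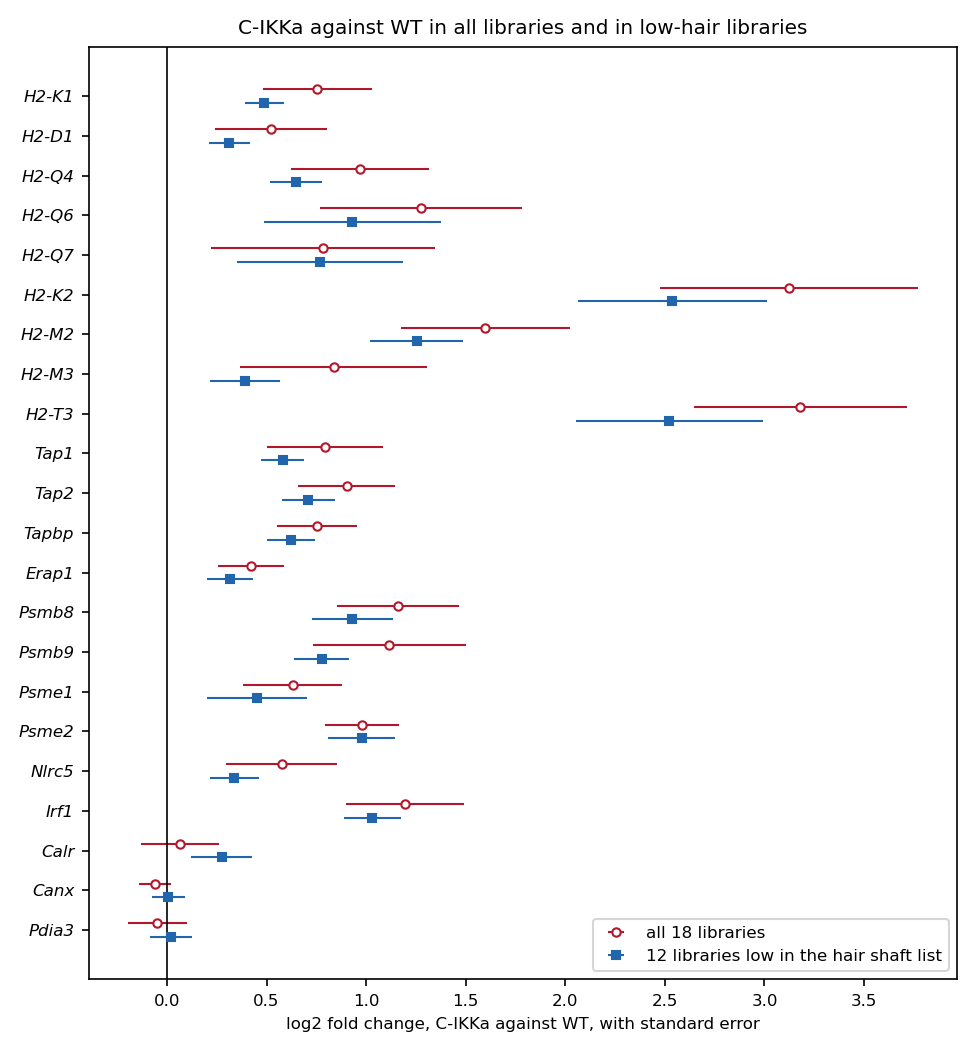
Log2 fold change of C-IKKa against WT with its standard error for the 22 tested genes, over all 18 libraries (open circles) and over the 12 hair-low libraries (squares). Values are mostly lower in the hair-low fit, with a median of 0.64 against 0.81, and most error bars are shorter.

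Immune cells carry much class I, and most of their markers had positive values in C-IKKa. The summed T and cytotoxic cell markers ran from 242 to 902 in WT, 224 to 1041 in N-IKKa and 416 to 918 in C-IKKa. All 8 tested were positive in C-IKKa against WT, beside 50% of all genes, with a median of 0.46. By limma 0 were called, beside 0.345% of all genes called higher, and 1 was higher at an unadjusted p below 0.05, beside 3.61%. Cd8a, the CD8 alpha chain, had medians of 4.54 in WT and 23.1 in C-IKKa (2.37, SE 0.76, adjusted p = 0.443). Its C-IKKa and WT libraries did not overlap, beside 0.838% of all genes. Between C-IKKa and N-IKKa, 0 of the 8 markers, Cd8a included, were without overlap.

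Langerhans and dendritic cell markers summed to 5072 to 12103 in WT, 4317 to 13396 in N-IKKa and 8496 to 17975 in C-IKKa. Of these, 7 of 8 were positive, beside 50% of all genes, with a median of 0.61, among them Cd74 (0.83) and H2-Ab1 (0.82). The 1 negative value was −0.10. This list includes the class II presentation genes Cd74, H2-Aa, H2-Ab1 and H2-Eb1, so its sum does not separate cell number from class II level. General leukocyte markers summed to 816 to 1990, 720 to 2579 and 1359 to 2539, with 4 of 4 positive, beside the same 50%, and a median of 0.41. Macrophage markers had a median of 0.01 and keratinocyte markers 0.09. None of these immune or keratinocyte markers was at 0 in all libraries, and 0 were called in any of the lists, beside 0.345% of all genes called higher. In the hair-low libraries the T cell sums were 661 to 902 in WT and 710 to 918 in C-IKKa, and the leukocyte sums 1582 to 1990 and 1618 to 2539. The Langerhans and dendritic cell sums there were 8081 to 12103 in WT and 10068 to 17975 in C-IKKa. The part of these cells in the class I differences was not tested.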

How the data were processed

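Libraries were made from total RNA of back skin with a stranded mRNA kit and sequenced as paired reads, per the labels' protocols. Reads were counted with featureCounts on GRCm39, per the submitters' processing notes. Not given in the sources used here are the aligner, annotation release, versions, strand setting and scaling tool. The deposited signal values are normalized counts, which the authors obtained by dividing reads by a factor for each library, as the values themselves show: dividing by each library's step returned whole reads for 100% of values, within 0.01 reads. Members and lists were chosen with earlier results of these data known. Genes with at least 10 normalized counts in at least 6 libraries (17667) were tested with limma 3.58.1 (R 4.3.3, trend) on log2(normalized count + 1), with 1 mean per group over all 18 libraries and Benjamini-Hochberg adjustment over all genes tested. Calls were made below an adjusted p of 0.05, and fold changes on this scale understate those of low genes. Named in full were members called in any comparison and, of each role list, the 2 with the smallest p in C-IKKa against WT; of other lists, the called genes or else such 2. Sex was read from Ddx3y, male above 500. edgeR 4.0.16 and DESeq2 1.42.0 on recovered reads, other pseudocounts, filters, scalings, covariates and weights, and fits without single libraries were alternatives; edgeR called 55 genes in C-IKKa against WT and limma 61. Exon lengths and shared windows came from a GRCm38 annotation, so they are approximate for these files. Of the fits, only the main limma fit was tested on simulated data. Changes were set there only in more abundant genes, so scarce ones such as H2-K2 and H2-T3 were not covered. No hair state or sex was simulated.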

Additional observations from a re-analysis of the deposited data

Results flagged for a closer look

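Pdia3, which encodes ERp57, stood at 2511 in WT 1, far from the next WT library at 1798 and the lowest at 1505. It was found by a search of 66 sets of 6 libraries, of which chance alone would mark about 1 in 20.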

How the results depend on the processing

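No paired analysis was possible because the groups share no replicate numbers. The 3 members called in C-IKKa against WT became 1 with a filter of 50, 8 with DESeq2, 12 without the hair-high libraries, 13 with the hair list as covariate, 12 with that and sex, and 7 with array weights. The shares of all genes called higher in these fits, in that order, were 0.267%, 0.77%, 0.866%, 0.855%, 0.804% and 0.951%, against 0.345%. Without each library in turn the count ran from 1 to 3, being 1 (H2-T3) without WT 4 or 5 or C-IKKa 13, 16, 17 or 18. The 2 called in C-IKKa against N-IKKa became 5 with a pseudocount of 5, 1 with a filter of 50, 1 with edgeR, 8 with DESeq2, 1 with the 2 groups alone, 1 without the hair-high libraries, 13 with the hair list, 11 with that and sex, and 9 with array weights. The shares of all genes were here 0.509%, 0.331%, 0.334%, 0.968%, 0.306%, 0.266%, 0.843%, 0.94% and 0.894%, against 0.425%. Without each library they ran from 1 to 5, being 4 without N-IKKa 7 or 10, 5 without N-IKKa 12, and 1 without N-IKKa 8, 9 or 11 or C-IKKa 13, 16, 17 or 18. A filter of 50 leaves the scarce heavy chains untested, and other causes were not tested. The other fits included H2-K2, H2-T3, H2-Q6 and H2-Q7, which reached the main filter only with the C-IKKa libraries. Their counts of called members therefore support nothing by themselves. N-IKKa against WT gave 0 in all alternatives run. No called value changed direction. Without each library, Psmb8 minus Psmb5 in C-IKKa against WT ran from 1.14 to 1.82 and Psmb9 minus Psmb6 from 0.85 to 1.24. Levels near 3 reads limit the scarce heavy chains, and class I reads were assigned to the genes of another haplotype.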
